A study of Mus musculus with 6 samples.

Results

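The 214 regions described here were bound by CTCF in both genotypes of a mouse embryonic stem cell study and did not have a lower mean peak score in the mutant. They were chosen by their scores. Rows of the authors' table of joined peaks were kept on chromosomes 1 to 19 and X where they overlapped a peak in each of the 4 CTCF ChIP-seq lists, which left 30312 shared regions of 57662 rows. In each list the highest peak score on a region was taken, and a member was a shared region whose MUT_CTCF mean was at least its WT_CTCF mean. The members are 0.706% of the shared regions. The other 30098 shared regions had a lower mean score in MUT_CTCF, and in 96.2% of shared regions both MUT_CTCF scores lay below both WT_CTCF scores.

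CTCF recognises a long, G+C-rich DNA motif through its zinc fingers and, with the ring-shaped cohesin complex, anchors chromatin loops. O-GlcNAc is a single sugar that cells add to serines and threonines of nuclear proteins, and the enzyme OGT attaches it. In ChIP-seq, DNA bound by a protein is pulled down with an antibody and sequenced, and a peak is a stretch of genome where such fragments pile up. CTCF peaks often lie in short interspersed repeats, because some repeat families of the mouse carry a copy of the motif.

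Both genotypes were embryonic stem cells whose own CTCF carried a degron tag (CTCF-mAID) and was removed with auxin for 2 days. The cells then relied on an introduced CTCF, either the wild-type protein (WT_CTCF) or a protein in which alanine replaced the threonine that carries the sugar (MUT_CTCF). There were 2 biological replicates of each genotype, and 2 input libraries were not used. The cells came from picked clones, so genotype and clone cannot be told apart. Scores are values from the peak caller on tracks scaled by Drosophila spike-in chromatin. Their definition is not given in the sources used here, and they are not read counts. A lower score is therefore not shown here to mean less CTCF on the DNA, and the words kept and lost below refer to scores only. A comparison of spike-in scaled read counts between the genotypes, which was not used here, need not have the same direction. Read depth per library is unknown here. The lists held 49987 and 54001 peaks in WT_CTCF and 33939 and 32712 in MUT_CTCF.

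The sequences at named members are shown first, because the motif differs among them. Each line gives 29 bases of the mm9 reference (NCBIM37), 5′ to 3′ on the motif's strand. Capitals mark the bases of the 13-base CTCF core that match it, and lower case inside the core marks a mismatch. The first pair had the highest ratios of mean MUT_CTCF to mean WT_CTCF score, and the next 3 were among the 5 members with the highest MUT_CTCF score. The last lies at the start of Nbeal2.
Prkd2, chr7:17434054-17434082, minus strand: gcccgcagCCtaTAGGGGGCGcaagacca
Prelp, chr1:135820941-135820969, plus strand: ggcttcagCCACCAGGGGaaAcctggcgc
Gm7292, chr6:117625644-117625672, plus strand: agctttctCCAGCAGGGGGCAactcttgg
Rbfox3, chr11:118369379-118369407, plus strand: acttctgaCCAGCAGAGGGaAccaatgag
C630004H02Rik, chr11:115215660-115215688, minus strand: catgatcaCCAGCAGGTGGCGctaggcca
Nbeal2, chr9:110537922-110537950, plus strand: gtcgtctgCCgCTAGGGGGCGctcgcgct
The Gm7292 and C630004H02Rik sites had no mismatch, and the Rbfox3 and Nbeal2 sites had 1. None of the 5 members with the highest ratio held the core within 1 mismatch, and 4 of them held it with 2.

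Members had lower scores than other shared regions in all 4 libraries, and the gap was wider in WT_CTCF. Median member scores were 151 and 155.5 in WT_CTCF and 188 and 181 in MUT_CTCF. In the other shared regions the medians were 573 and 620 in WT_CTCF and 263 and 250 in MUT_CTCF. Averaged over replicates, the member medians of WT_CTCF were 153 ± 3.18 (SD, n = 2), and those of MUT_CTCF 185 ± 4.95 (SD, n = 2). In the other shared regions the corresponding averages were 597 ± 33.2 (SD, n = 2) for WT_CTCF, and for MUT_CTCF 257 ± 9.19 (SD, n = 2). These scores chose the members, so their differences are given without a test.

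**Figure D1:**
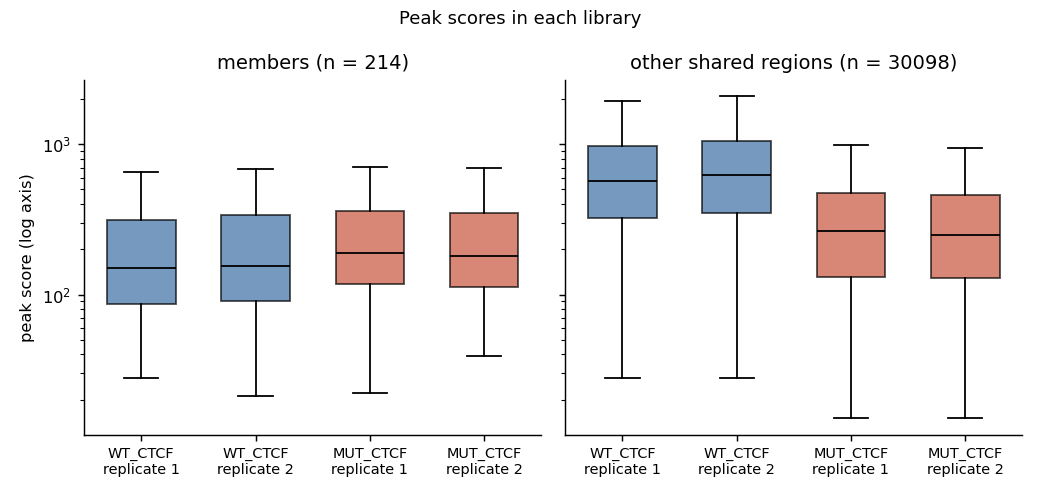
Peak score in each library (log axis) for the 214 members and for the 30098 other shared regions; boxes span the quartiles with the median as a line, whiskers reach 1.5 interquartile ranges and points beyond are not drawn. The member boxes lie at about the same height in all 4 libraries, with medians from 151 to 188, whereas the other shared regions have medians of 573 and 620 in WT_CTCF and 263 and 250 in MUT_CTCF.

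Most members had a low mean signal. This authors' value, the spike-in scaled read count averaged over the 4 libraries, had a median of 124 in members and 207 in other shared regions. Split into terciles of that signal, the lowest held 134 members (1.32% of its regions), the middle 51 (0.505%) and the highest 29 (0.288%). In the lowest tercile the median WT_CTCF mean score was 101 in members and 273 in other regions, while the median MUT_CTCF mean score was 124 and 107. In the highest tercile the WT_CTCF values were 684 and 1217, and the MUT_CTCF values 747 and 565. Within a tercile of the mean over all libraries, the rule itself sets members low in WT_CTCF and high in MUT_CTCF, so these values only describe the members.

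The ratio of members was mostly small. The median ratio was 1.12 (log2 0.16), the highest 2.45, and 5 members had equal means. A ratio of at least 1.1 was reached by 117 members, of at least 1.5 by 26 and of at least 2 by 6. Both MUT_CTCF scores lay above both WT_CTCF scores in 66 members, which is 0.218% of the shared regions. In the other 148 members the scores of the genotypes overlapped or touched, and in 51 members one MUT_CTCF score lay below both WT_CTCF scores. The description "keeps its score" therefore rests on the mean alone for most members.

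**Figure D2:**
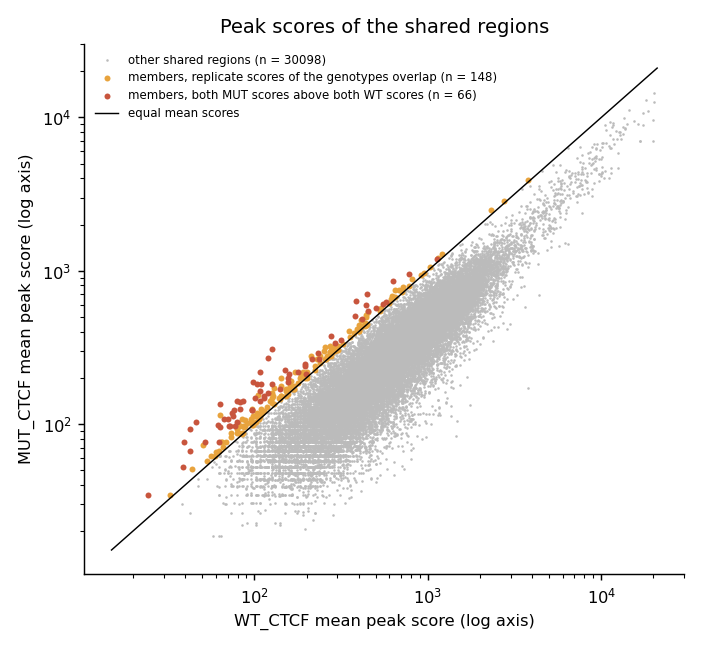
Mean WT_CTCF against mean MUT_CTCF peak score of the 30312 shared regions, both on log axes, with the line of equal means. The 214 members lie on or above the line by construction, close to it, and mostly at low scores, and the 66 whose MUT_CTCF scores both exceed the WT_CTCF scores are drawn in red.

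The threshold cut through a continuous range. Just inside it, a region in an intron of Wfdc2 scored 200 in all 4 libraries, a region beside Lrig3 scored 189 and 151 in WT_CTCF and 140 and 200 in MUT_CTCF, and a region at the Klc1 promoter scored 107 and 88 against 66 and 129. Just outside it, a region in an exon of Pcnxl2 scored 596 and 609 in WT_CTCF and 641 and 563 in MUT_CTCF, one at the Tgfa promoter 515 and 386 against 559 and 341, and one at the Dmpk promoter 358 and 407 against 349 and 415. The spread between replicates of these 6 regions was larger than the difference of their means, or 0 where all scores were equal. A further 223 shared regions had a ratio of at least 0.9 without reaching 1.

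Choosing regions in one pair of libraries and reading them in the other showed how far the property carried over. With the replicate 1 libraries alone, MUT_CTCF was at or above WT_CTCF in 619 shared regions (2.04%), and with the replicate 2 libraries alone in 308 (1.02%). Of the 619, 93 also met the condition in the replicate 2 libraries, a share of 15.0% (exact 95% binomial interval, 12.3% to 18.1%). Of the 308, the same 93 were 30.2% (25.1% to 35.7%). In crossed pairs, 391 regions (1.29%) met the condition with MUT_CTCF replicate 1 and WT_CTCF replicate 2, 485 (1.60%) with the opposite libraries, and 94 with both. The share that carried over was thus well above the background share in every pairing. Yet the 619 regions had a median log2 ratio of -0.53 in the replicate 2 libraries, against -1.27 for all shared regions, and the 308 had -0.27 in the replicate 1 libraries, against -1.10. Regions that kept their score in one pair thus had, as a set, lower MUT_CTCF scores in the other, though the difference was smaller than in shared regions as a whole.

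Individual libraries weighed on the membership. Without WT_CTCF replicate 2, 437 regions met the rule, and without MUT_CTCF replicate 2, 410. Without either replicate 1 library the number was 287. Membership also rests on the scale of the scores: when each library's scores were divided by their median over shared regions, 16132 regions met the rule, since that step puts the typical region at equal scores by construction.

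The 5 members with the highest ratio had WT_CTCF scores of at most 149, and 3 of them had MUT_CTCF scores below the member medians. In an exon of Prkd2 (protein kinase D2, a signalling kinase), a region scored 149 and 104 in WT_CTCF and 344 and 276 in MUT_CTCF, a ratio of 2.45. In the promoter of Prelp, which encodes a proteoglycan of the extracellular matrix, the scores were 112 and 129 against 263 and 276, a ratio of 2.24. These were the highest MUT_CTCF scores of the 5, and in both regions each MUT_CTCF score was more than any WT_CTCF score.

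The remaining regions followed with lower scores. An intergenic region 9914 bp from the start of Myh10 (a non-muscle myosin heavy chain) scored 46 and 46 in WT_CTCF and 97 and 107 in MUT_CTCF. A region at Chd5, a chromatin remodeller, scored 30 and 55 against 73 and 112. Its summit, averaged over the libraries, lay in an intron, but the region also touched an exon and a 3′ UTR. A region in the promoter of a Gpr144 gene model, 25046 bp from the start of the proteasome subunit gene Psmb7, scored 79 and 47 against 135 and 135. In all 5 the genotypes did not overlap.

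The 5 members with the highest MUT_CTCF score had ratios between 1.04 and 1.08. The strongest lay 10927 bp from the start of Safb2 (a scaffold attachment factor) and scored 3553 and 3988 in WT_CTCF and 3789 and 4051 in MUT_CTCF. A region 40470 bp from Gm7292 scored 2527 and 2985 against 2936 and 2770, and one 145332 bp from the start of Mocs1, a gene of molybdenum cofactor synthesis, 1957 and 2683 against 2687 and 2321. At the promoter of Rbfox3, which encodes the neuronal splicing factor NeuN, the scores were 1119 and 1306 against 1448 and 1108. In C630004H02Rik they were 1151 and 1138 against 1324 and 1091. In each of these 5 the scores of the genotypes overlapped. The same 5 also had the highest authors' mean signal, from 496 to 1163.

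A promoter, taken as the 3000 bp upstream of a transcript start, was touched by 31 members, and a protein-coding one by 23. In 7 of the 23 both MUT_CTCF scores exceeded both WT_CTCF scores, a share like that of all members (66 of 214). The 5 of these 7 with the highest ratio are named here, so their genotypes are separate by construction. Nbeal2, a gene of platelet granule formation, had the highest scores of them, with 401 and 491 in WT_CTCF and 700 and 713 in MUT_CTCF. Prelp is described above. Prss8, the membrane protease prostasin, had 87 and 79 against 158 and 92, Pigyl 68 and 57 against 76 and 76, and Grin2b, a subunit of the NMDA glutamate receptor, 129 and 151 against 176 and 163. The gaps between the groups at Prss8, Pigyl and Grin2b were smaller than the larger spread between replicates there.

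**Figure D3:**
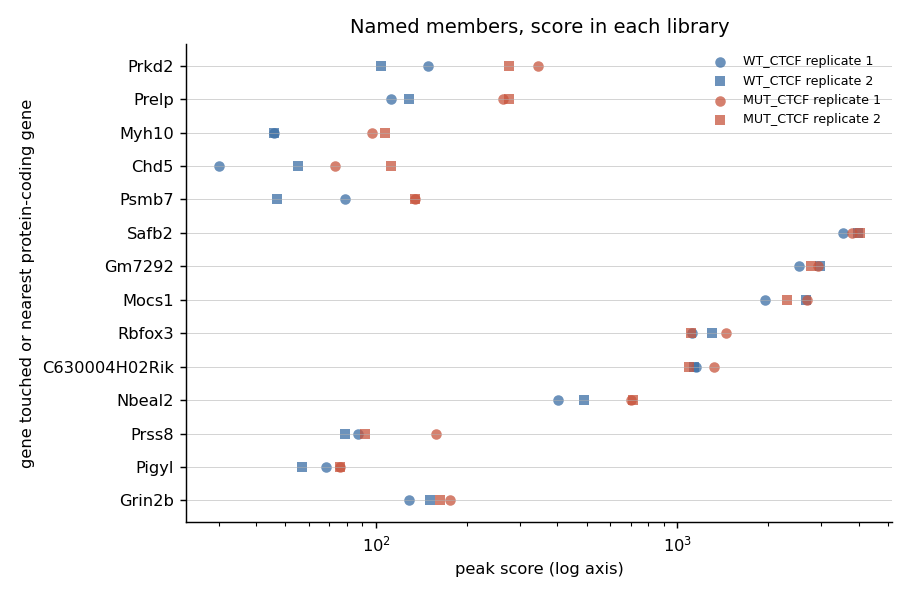
Peak score in each of the 4 libraries (log axis) for the named members, each row labelled with the gene touched or nearest. Blue and red points are separate in the 5 rows with the highest ratio (Prkd2 to Psmb7) and intermixed in the 5 rows with the highest score (Safb2 to C630004H02Rik). They are separate by construction in the promoter rows (Nbeal2 to Grin2b), which were chosen among members whose genotypes did not overlap.

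Shares by location differed most between members and other shared regions at exons. A promoter was touched by 14.5% of members and 15.4% of other shared regions, a gene but none of its exons by 34.6% and 36.0%, and 42.1% and 42.9% lay outside genes and promoters. An exon was touched by 45 members, 21% (exact 95% binomial interval, 15.8% to 27.1%), and by 15.7% of other shared regions. These 45 include the members beside Gsk3b, Nup35, Acot12, Gcm1 and Lmo7. Each of those held the start, and so an exon, of a gene model of SNORA17, a repeated small nucleolar RNA described below. Their part in the exon share was not tested. The exon share was higher in each tercile of mean signal, at 16.4% against 10.05%, 29.4% against 14.7% and 27.6% against 22.4%. A high exon share was not particular to members: it was 20.1% in the 1761 shared regions with a log2 ratio from -0.5 to 0 and 21.9% in the 2144 with a log2 ratio below -2, and from 14.4% to 15.6% between these limits. The 5′ UTR shares were 1.87% and 3.53%, and the 3′ UTR shares 5.14% and 3.89%. Regions are not replicates, so these intervals cover the counting of regions only and no test was made.

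The core motif was less common in members. It was found within 1 mismatch in 127 members, 59.3% (52.4% to 66.0%), and in 70.4% of other shared regions. Without mismatch the shares were 14.0% and 20.2%, and more than 1 core was found in 2.34% and 5.52%. Within 100 bp of the mean summit, a window of 1 size for all regions, the shares within 1 mismatch were 57.9% and 68.1%. In terciles of mean signal the shares were 52.2% and 63.6% in the lowest and 64.7% and 70.6% in the middle one, but 82.8% (64.2% to 94.2%) and 76.9% in the highest. Where the core was present it lay a median of 8.75 bp from the mean summit in members and 7.50 bp in other shared regions. Among the 66 members whose genotypes did not overlap, 51.5% held it. Lower shares were also found at both ends of the other shared regions, with 64.3% within 1 mismatch and 18.5% without mismatch at log2 ratios from -0.5 to 0, and 65.9% and 13.8% below -2. Between these limits the shares were 70.2% to 72.1% within 1 mismatch and 17.4% to 22.0% without.

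Members were richer in G+C. Their median G+C content was 49.7% (quartiles 44.8% and 54.7%), and that of other shared regions 45.8% (42.0% and 49.8%). In other shared regions with a log2 ratio from -0.5 to 0 the median was 48.3%, and below -2 it was 46.2%. Members were higher than the others in each tercile of mean signal, with medians of 48.6% against 44.3%, 51.3% against 45.5% and 52.9% against 47.8%. G+C was taken over the whole region, and member regions were narrower, with a median of 461 bp against 592 bp. In the terciles the median widths were 397 against 466 bp, 542 against 594 bp and 671 against 716 bp. No window of 1 size was used for G+C, and the part of width in the difference was not tested. The ratio of observed to expected CpG, which is high in CpG islands, had a median of 0.217 in members and 0.231 in the others. When regions were chosen in a single pair of libraries, the 4 sets had median G+C contents between 48.0% and 48.8%.

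Across all shared regions the share of members rose with G+C. It was 0.359% below 35% G+C (3 of 836 regions), 0.586% between 45% and 50%, 1.12% between 50% and 55%, and 2.25% between 55% and 60% (36 of 1603). At 60% and over it was 1.66% (6 of 362). The median log2 ratio of all regions rose over the same range from -1.34 below 35% to -1.10 between 50% and 60%, but was -1.78 at 60% and over. The bin with the largest median loss thus still held members, but its share rests on 6 regions. Authors' mean signal also rose with G+C, from a median of 146 to 374, and its part in this was not tested.

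**Figure D4:**
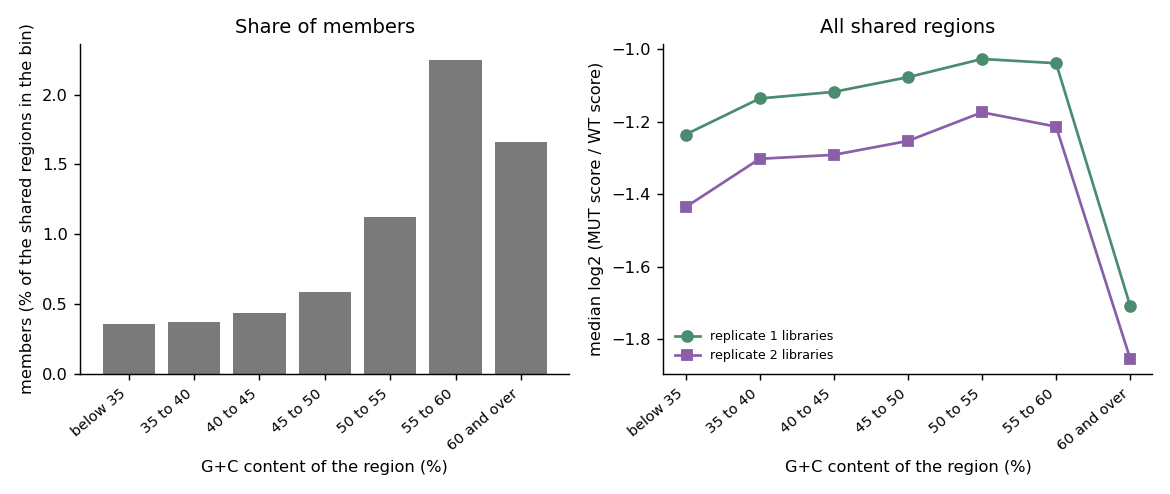
Left, members as a percent of the shared regions in each bin of G+C content; right, median log2 ratio of MUT_CTCF to WT_CTCF score of all shared regions in the same bins, for the replicate 1 and the replicate 2 libraries. The share of members rises from 0.359% to 2.25% between the lowest bin and the bin from 55% to 60%, and both lines peak between 50% and 60% and drop in the bin of 60% and over.

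A repeated site stood out among the members, and it was looked for after the members were known. Of the 214, 6 touched the promoter of a gene model named SNORA17. SNORA17 is a small nucleolar RNA, and 611 gene models of the annotation carry its name. The share was 2.80% (1.04% to 6.002%) of members and 0.206% of other shared regions (62 of 30098). The best CTCF core of all 6 lay in a nearly identical stretch. It is shown for 5 of them under the name of the nearest protein-coding gene, with the 13 bases of the core position in capitals, mismatches included.
Gsk3b, chr16:38158133-38158161, plus strand: catgtgtgTCAGTAGGTGGCAgagaggaa
Nup35, chr2:80547785-80547813, plus strand: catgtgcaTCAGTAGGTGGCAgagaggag
Acot12, chr13:91862900-91862928, plus strand: tatgtgtgCCAGTAGGTGGCAgagaggag
Gcm1, chr9:77861839-77861867, minus strand: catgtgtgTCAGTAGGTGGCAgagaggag
Lmo7, chr14:102728811-102728839, minus strand: catatgtgTCAGCAGGTGGCAgagaggag
Each differs from the most common base at each position in at most 2 of 29 bases. The scores beside Gsk3b were 47 and 57 in WT_CTCF and 86 and 66 in MUT_CTCF, and beside Acot12 215 and 253 against 277 and 303, with no overlap in either. Beside Nup35 they were 203 and 138 against 263 and 175, beside Gcm1 216 and 164 against 188 and 250, and beside Lmo7 57 and 68 against 66 and 66. These 3 overlapped. At the sixth, in 8030462N17Rik, they were 244 and 273 against 225 and 303, which also overlapped.

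Shared regions with this site that were not members had, as a set, higher score ratios than shared regions without it. At most 3 of the 29 bases differed from the most common ones in 34 shared regions, of which 6 were members (17.6%, against 0.687% of the remaining shared regions). The most common bases were taken from these 6 members, so all 6 are included by construction and the 17.6% is no result about the site. In the other 28, the median log2 ratio was -0.66 in the replicate 1 libraries and -0.94 in the replicate 2 libraries, against -1.10 and -1.27 in shared regions without the site. Of these 28, 26 had a log2 ratio of mean scores above the median of the other shared regions. In 25 both MUT_CTCF scores lay below both WT_CTCF scores, 89.3% against 96.2% of shared regions without the site. The 28 also had lower levels, with median WT_CTCF scores of 369.5 and 383 against 569 and 620 without the site. Their median mean signal was 164 against 207, and the part of level in the difference was not tested. The 28 are the part of the set that the rule did not choose. Their ratios come from the same scores of the same 4 libraries, and regions are not replicates, so these values only describe them. The copies were distinguishable: 88.0% to 97.1% of the 31-base words sampled in the 6 member regions occurred once in the genome.

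A far more common form of the core was less frequent in members than in other shared regions. The word CCAGAAGAGGGC, the most common 12-base word at the cores of shared regions and a form of the CTCF core found in B2 short interspersed elements, was searched on both strands and occurred in 5592 shared regions. It was held by 19 members, 8.88% (5.43% to 13.5%), and by 18.5% of other shared regions. Of the regions with the word 0.340% were members, and of those without it 0.789%. The median log2 ratio was -1.24 with the word and -1.16 without it. Regions with the word also had a lower median G+C content, 43.6% against 46.6%, and a lower median mean signal, 171.5 against 215.75. The part of these in the difference was not tested. In the lowest tercile of mean signal the shares were 8.21% and 24.1%, and in the highest 10.3% and 13.3%. Among regions without the word the core was found in 55.9% of members and 64% of the others, and the median G+C content was 50.1% and 46.6%. This word, too, was examined after the members were known. No annotation of repeats was used, so the regions with the word are not shown to lie in B2 elements.

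Few members lay in sequence with several genomic copies. The median copy number of the sampled words was over 1 in 5 members (2.34%) and in 1.27% of other shared regions. At the region with the most copies, near Fbxo33, the scores were 79 and 28 in WT_CTCF and 76 and 39 in MUT_CTCF.

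Peaks on members differed less in width between the genotypes than those on other shared regions, and summit positions were alike in both sets. Median peak widths on members were 359 and 389 bp in WT_CTCF and 341 and 340 bp in MUT_CTCF, against 527 and 555 bp and 402 and 387 bp on other shared regions. The peak was narrower in MUT_CTCF in 66.8% of members and in 97.7% of other shared regions, and the median log2 ratio of the widths was -0.11 and -0.46. Width comes from the same peaks as the score, so this is a description. The mean summits of the genotypes lay a median of 10.3 bp apart on members and 8 bp on other shared regions, close to the 9 and 8 bp between replicates of a genotype on members. Summits lay within 50 bp of each other in 206 members (96.3%) and in 97.7% of other shared regions.

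Members were scattered along the genome. The distance from one member to the next on a chromosome had a median of 5.22 Mb, and 3 separate pairs of members started within 100 kb of each other, at Capn5 and B3gnt6, at Otop2 and C630004H02Rik, and near Rpl38. Of the 427 shared regions next to a member, 2 were members themselves and the rest had a median log2 ratio of -1.19, against -1.18 in all other shared regions. Within 20 kb there were 173 such neighbours, none of them a member, with a median of -1.20. Shared regions beside a member therefore lost as much score as shared regions elsewhere.

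By chromosome the share of members ran from 0 to 1.41%. Chromosome 18 had 12 of 854 regions (1.41%, exact 95% binomial interval 0.728% to 2.44%), chromosome 14 had 11 of 1097 (1.00%) and chromosome 11 had 25 of 2584 (0.967%). At the other end, chromosome 13 had 4 of 1128 (0.355%) and chromosome 3 had 6 of 1397 (0.429%). Chromosome X had 0 of 629 regions, which allows a share of up to 0.477% when 0 is read as at most 3 regions, and of up to 0.585% by the exact 95% interval drawn in the plot by chromosome. Both lie below the 0.706% of all shared regions. Its shared regions had a median log2 ratio of -1.30, lower than that of any autosome. Except on chromosomes 18 and X, the interval of each chromosome included the overall share. These intervals were not adjusted for the 20 chromosomes looked at and cover the counting of regions only. Whether chromosomes 18 and X differ from the rest was not tested. Of 436 windows of 5 Mb with at least 20 shared regions, 279 held no member and none held more than 4. The 3 windows with the highest shares held 2 members each, of 22, 32 and 34 shared regions.

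**Figure D5:**
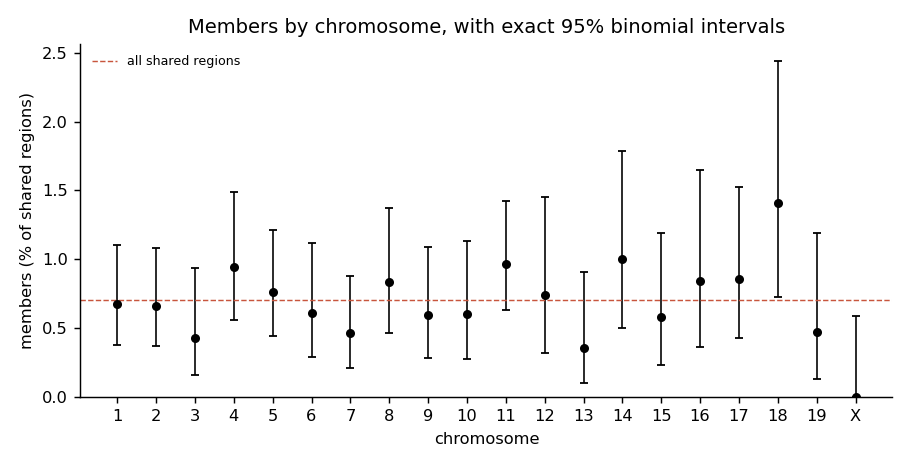
Members as a percent of the shared regions of each chromosome, with exact 95% binomial intervals and the overall share of 0.706% as a dashed line. The intervals of chromosomes 18 (above) and X (below) leave out the overall share, and chromosome X has no member. The intervals are not adjusted for the number of chromosomes.

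Members were counted on 15 gene lists, among the shared regions that touched a listed gene or its promoter. Regions farther from these genes were not counted. For naive and core pluripotency genes, 2 of 22 shared regions were members (9.09%, against 0.706% of all). The region in an intron of Prdm14, a factor of naive pluripotency, scored 90 and 57 in WT_CTCF and 66 and 107 in MUT_CTCF. The region in an intron of Mycn, a growth-promoting transcription factor, scored 272 and 276 against 341 and 251. In both the genotypes overlapped. Mycn was also the member among 18 regions of growth control genes. The median log2 ratio over the 22 pluripotency regions was -1.41, lower than in shared regions as a whole.

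The remaining lists gave 3 members. Of 58 regions at clustered protocadherins, the cell adhesion genes whose promoters are chosen with CTCF, 1 was a member, at the 3′ UTR of Pcdhb18, with 257 and 223 in WT_CTCF and 263 and 237 in MUT_CTCF. Of 149 regions at zinc finger Zfp genes 2 were members, at Zfp341 with 105 and 107 against 97 and 118 and at Zfp961 with 163 and 151 against 152 and 163. All 3 overlapped between genotypes. None was found among 40 regions at ribosomal protein genes, 29 at proteasome genes, 28 at imprinted genes, 20 at cohesin and CTCF cofactor genes, 18 at respiratory complex I genes, 14 at olfactory receptor genes, 13 each at Hox and O-GlcNAc pathway genes, 9 at germ layer regulators, 8 at histone genes and 7 at DNA methylation enzymes. At a background of 0.706% these lists are too short for a count of 0 to differ from it.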

How the data were processed

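CTCF ChIP-seq libraries of 2 WT_CTCF and 2 MUT_CTCF replicates were analysed. Per the labels and the study's methods, the authors trimmed reads with Trim Galore 0.4.4, aligned them to mm9 with Bowtie2 2.3.4.1 and called peaks per library with MACS2 2.1.1.20160309 on spike-in scaled coverage. The authors' deposited peak lists give each peak a score and the distance of its summit from the start, and the smallest score in each list is 13. The authors' deposited table of joined peaks gave positions and a mean scaled signal over the 4 libraries. Its remaining columns, the authors' DESeq2 fold change, standard error, test statistic and p-values, were not used, so no statement here rests on read counts per genotype. Unused columns of per-sample values numbered 0.

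Overlap meant at least 1 bp. Location came from GENCODE vM1, and sequence from NCBIM37, which is mm9. The 13-base CTCF core was searched on both strands with at most 1 mismatch. Copies were counted for 31-base words taken every 10 bp. Intervals are exact 95% binomial, and a count of 0 was read as up to 3. The members come from the compared scores, so no test was made. Groups came from sample titles. Members, lists and measures were chosen with earlier results of these data known. Named regions were the 5 with the highest ratio, MUT_CTCF score or mean signal, the 5 protein-coding promoters without overlap and with the highest ratio, 3 on each side of the threshold, up to 4 per gene list, and the 3 highest and lowest chromosomes or windows. The repeated sites, the region with the most copies and the close pairs of members fall outside this rule. Overlap and motif searches were tested on simulated data. Scripts ran under Python 3.11.15 with scipy 1.17.1, pandas 2.3.3 and matplotlib 3.10.9.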

Additional observations from a re-analysis of the deposited data

How the results depend on the processing

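No test was made on the scores that chose the regions, with or without pairing. Reading regions chosen in one pair in the other pair gave a share of 20.1% within same-numbered pairs, as a replicate block, and 21.5% within crossed pairs. Leaving out 1 library gave 287 to 437 members, 0.894% to 1.44% of shared regions, a core motif share of 52.3% to 60%, a promoter share of 12.5% to 16.9%, a median ratio of 1.12 to 1.14, a median width of 442 to 472 bp and a median G+C content of 48.5% to 49.4%. Between 154 and 175 of the 214 members stayed members. A reciprocal overlap of 50% gave 184 members, 0.808% of shared regions. Dividing scores by the library median gave 16132 regions, 53.2% of those shared, with a median ratio of 1.24, a motif share of 70.1%, a width of 601 bp and a G+C content of 46.2%. A ratio of at least 1.1 left 117 members, 0.386%, with a median ratio of 1.25 and a width of 428 bp. A ratio of at least 0.9 gave 437, 1.44%, with a width of 512 bp, and the median ratio fell below 1, to 0.996, by construction. Both MUT_CTCF scores at or above both WT_CTCF scores left 67, 0.221%, with a median ratio of 1.35 and a motif share of 52.2%. A WT_CTCF mean at or above the median of shared regions left 21, 0.138%, with a motif share of 85.7%, a width of 688 bp and a G+C content of 51.4%, against 75.8% and 46.7% for motif and G+C in the other regions of that kind. The motif share was 14.0% with 0 and 86.4% with 2 mismatches. The search near the summit and the G+C alternatives were chosen after seeing the data. Where no construction is named, the cause was not tested. Of 82 alternative values, 49 stayed within their limits, 32 moved and 1 changed direction. Unknown read depth, 2 libraries per genotype and an undefined score limit every statement.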
